A study of Mus musculus with 3 samples.

Results

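The members described here are the genes of the CSF1 and KIT receptors and of their ligands, 5 genes of the 51803 gene symbols that were quantified in mpkCCD cells. They were taken by name: the receptor genes Csf1r and Kit, and the ligand genes Csf1, Il34 and Kitl. These 5 genes hold 28 of the 128603 transcripts in the table. The group was chosen by results that used the FPKM of these same libraries, so all values below are descriptions without a test. The mpkCCD cells are a mouse line that stands in for the principal cell, the water-reabsorbing cell type of the kidney collecting duct, here re-cloned for high Aqp2 expression and used between passages 18 and 32. The shGR1 and shGR2 cells each carried a different lentiviral small hairpin RNA against the glucocorticoid receptor gene Nr3c1, and the shCtrl cells carried a non-targeting hairpin. All lines went through puromycin selection and were grown on permeable supports. Serum and most supplements were then withdrawn from every line, but dexamethasone, a synthetic glucocorticoid, was kept. All were under the vehicle condition, without vasopressin or its analog. Total RNA of each line gave 1 library, 3 libraries in all. A line and its library therefore cannot be told apart, and the only spread available is that between the 2 knockdown lines.

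CSF1R and KIT are receptor tyrosine kinases of the same class, which also holds the PDGF receptors and FLT3. A dimeric ligand joins a pair of receptors, which then phosphorylate each other and recruit adaptors of the RAS-ERK and PI3K-AKT routes. CSF1R is best known as the receptor that keeps macrophages and microglia alive, and it has 2 ligands of unlike sequence, CSF1 and IL-34. KIT is needed by mast cells, melanocytes, germ cells and blood stem cells, and its ligand is stem cell factor, the product of Kitl. In the mouse kidney, CSF1 and IL-34 made by tubular epithelium are known to act on macrophages after injury. Both CSF1 and KIT ligand are made as membrane proteins, and alternative splicing decides whether the stretch in which they are cut free is present.

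The Kitl and Csf1 transcripts that differ in that stretch, and the pair of coding Il34 transcripts, are shown because the deposited FPKM separate them. All sequences run 5′ to 3′ and are those of GENCODE M21 (GRCm38). Kitl-202 contains an exon of 84 bases (chr10:100080857-100080940, plus strand) that Kitl-201 skips, and this exon encodes the main cleavage site of KIT ligand. The capitals mark the exon, and 20 bases on each side are in lower case.
Kitl-202: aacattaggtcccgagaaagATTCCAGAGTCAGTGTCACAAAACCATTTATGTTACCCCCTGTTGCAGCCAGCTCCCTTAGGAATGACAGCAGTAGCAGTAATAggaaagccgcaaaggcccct
Kitl-201: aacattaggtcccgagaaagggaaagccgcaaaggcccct
Csf1-201 and Csf1-202 enter the same coding exon at different acceptors. In Csf1-201 the exon is 1016 bases long (chr3:107748154-107749169, minus strand), and in Csf1-202 it is 131 bases long (chr3:107748154-107748284), so that Csf1-202 lacks 885 bases. The long form gives secreted CSF1 and the short form stays mainly at the cell surface. The capitals mark the first 20 bases after the junction.
Csf1-201: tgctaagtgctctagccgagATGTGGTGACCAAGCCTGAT
Csf1-202: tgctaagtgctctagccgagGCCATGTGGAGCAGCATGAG
Il34-204 has an added exon of 118 bases (chr8:110746818-110746935, minus strand), marked by capitals, that Il34-201 skips.
Il34-204: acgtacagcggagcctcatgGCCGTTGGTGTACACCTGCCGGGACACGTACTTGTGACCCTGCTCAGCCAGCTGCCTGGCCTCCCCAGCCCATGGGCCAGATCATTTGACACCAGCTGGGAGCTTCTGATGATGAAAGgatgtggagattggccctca
Il34-201: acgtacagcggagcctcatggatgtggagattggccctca

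The ligand genes of both receptors were lower in the knockdown lines with the exception of Csf1. Il34 and Kitl were at least 2-fold lower in both knockdown lines, Csf1r was lower in both by less than 2-fold, and Csf1 lay on opposite sides of shCtrl in the 2 lines. Kit was under the expression minimum of 0.3 FPKM in every library. FPKM are fragments per kilobase of transcript per 1000000 fragments, and those of all transcripts of a symbol were summed. The targeted gene Nr3c1 had 4.41 FPKM in shGR1 cells and 9.13 FPKM in shGR2 cells, against 30.2 FPKM in the shCtrl cells, which fits the labels. Of the 15025 expressed genes with a value above 0 in all 3 libraries, 436 (2.9%) were at least 2-fold lower in both knockdown lines, and 332 (2.21%) were at least 2-fold higher in both. Of the 4 members that were expressed, 2 were at least 2-fold lower in both lines and 0 were at least 2-fold higher. By any amount, 3 of the 4 were lower in both lines, beside 43.9% of all these genes, and 0 were higher in both, beside 32.2%. The split of all genes between lower and higher depended on the scaling: 57.7% of the genes that moved one way in both lines were lower as deposited, and 42% were lower when each library was rescaled to a sum of 1000000. Since the members were chosen with this contrast known, nothing is read from these shares.

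**Figure D1:**
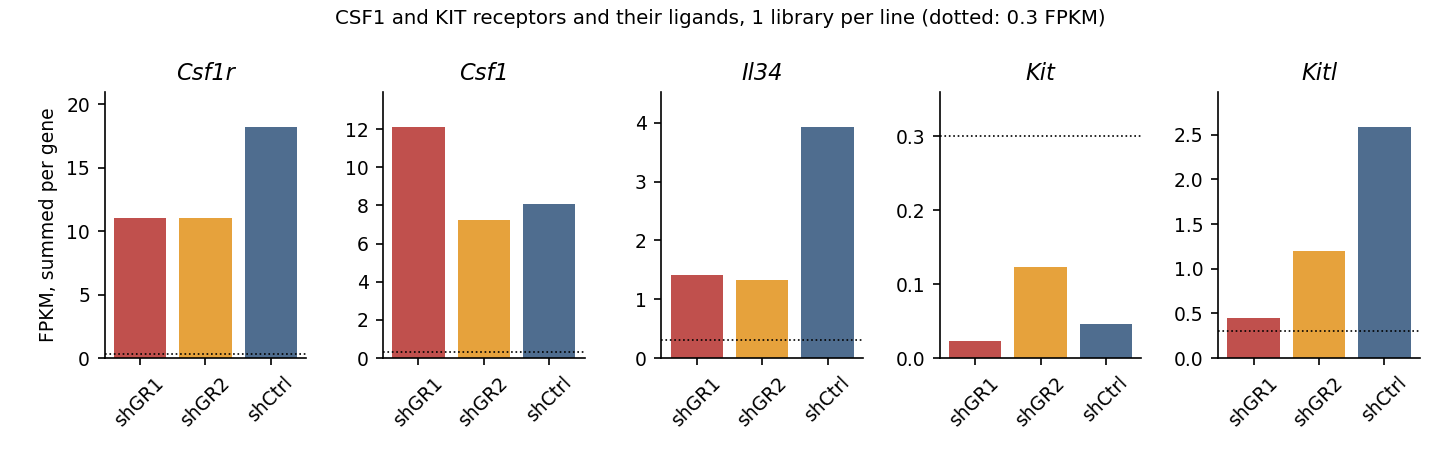
FPKM summed per gene (y axis, a separate scale for each gene) of the 5 members in the shGR1, shGR2 and shCtrl libraries, 1 bar per library and no error bar because each line has 1 library. Il34 and Kitl are lower in both knockdown lines than in shCtrl by at least 2-fold, and Kit stays under the dotted line at 0.3 FPKM.

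Csf1r, the receptor gene for CSF1 and IL-34 (ENSMUSG00000024621, chromosome 18, 61100598 to 61132149, GRCm38, plus strand), had 11.0 FPKM in shGR1 cells and 11.1 FPKM in shGR2 cells, against 18.2 FPKM in the shCtrl cells. Both knockdown lines lay below the control and next to each other. The log2 ratio to shCtrl was -0.73 in shGR1 and -0.72 in shGR2, a mean of -0.73 ± 0.004 (SD, n = 2 lines), which left 60.3% of the control level in shGR1 and 60.6% in shGR2. Among the expressed genes, 63.4% were at a lower FPKM than Csf1r in the shCtrl library, so the receptor mRNA was of middle abundance in this epithelial line. Of all expressed genes with a ratio, 8.07% had a lower mean log2 ratio than Csf1r.

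Csf1r has 2 transcripts in the table, and both encode the same 2931 coding bases. Csf1r-201 carried the signal, with 10.8 FPKM in shGR1 and 10.9 FPKM in shGR2, against 18.1 FPKM in shCtrl. Csf1r-202, which starts downstream and ends later, had 0.253 FPKM in shGR1 and 0.109 FPKM in shGR2, against 0.187 FPKM in shCtrl. Csf1r-202 thus made up between 0.986% and 2.29% of the gene in the 3 libraries. Pdgfrb, the PDGF receptor gene that lies just upstream of Csf1r, was at 0.0549 FPKM in shGR1 and 0.0645 FPKM in shGR2, against 0.0487 FPKM in shCtrl.

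Because Csf1r is a defining gene of macrophages, 15 other macrophage markers were read in the same libraries. The general leukocyte gene Ptprc (CD45) had 0.103 FPKM in shGR1 and 0.166 FPKM in shGR2, against 0.189 FPKM in shCtrl. The macrophage surface genes Adgre1, Itgam, Fcgr1 and Cx3cr1 were at or under 0.169 FPKM in every library, and Cx3cr1 was listed at 0 in shGR1. Csf1r stood 107 times above Ptprc in shGR1 and 66.5 times above it in shGR2, against 96.6 times in shCtrl. Other markers were expressed, and the highest was Cd14, a lipopolysaccharide co-receptor, with 18.4 FPKM in shGR1 and 21.0 FPKM in shGR2, against 27.0 FPKM in shCtrl. Lyz2 had 2.54 FPKM in shGR1 and 6.16 FPKM in shGR2, against 3.77 FPKM in shCtrl. Cd68 had 2.67 FPKM in shGR1 and 2.75 FPKM in shGR2, against 2.23 FPKM in shCtrl. Laptm5, Mrc1, Fcer1g, Aif1, Cd53 and Tyrobp also passed 0.3 FPKM in some library, with at most 0.858 FPKM. Spi1, which encodes the transcription factor PU.1 that drives Csf1r in macrophages, had 1.27 FPKM in shGR1 and 2.34 FPKM in shGR2, against 3.08 FPKM in shCtrl, and so was lower in both knockdown lines, as Csf1r was. Summed over the 15 markers the level was 27.4 FPKM in shGR1 and 37.2 FPKM in shGR2, against 39.3 FPKM in shCtrl. Without Cd14 and Spi1, a choice made after their values were seen, the sum was 7.73 FPKM in shGR1 and 13.9 FPKM in shGR2, against 9.19 FPKM in shCtrl. Of the 10 expressed markers 2 were lower in both lines (Cd14 and Spi1), 3 were higher in both and 5 lay on opposite sides of shCtrl. Over all 15025 expressed genes with a ratio, 43.9% were lower in both, 32.2% were higher in both and 3583 were opposite or equal to shCtrl. The part of such cells in the Csf1r values was not tested. Fewer cells of a type and less RNA per cell cannot be told apart in these bulk libraries.

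**Figure D2:**
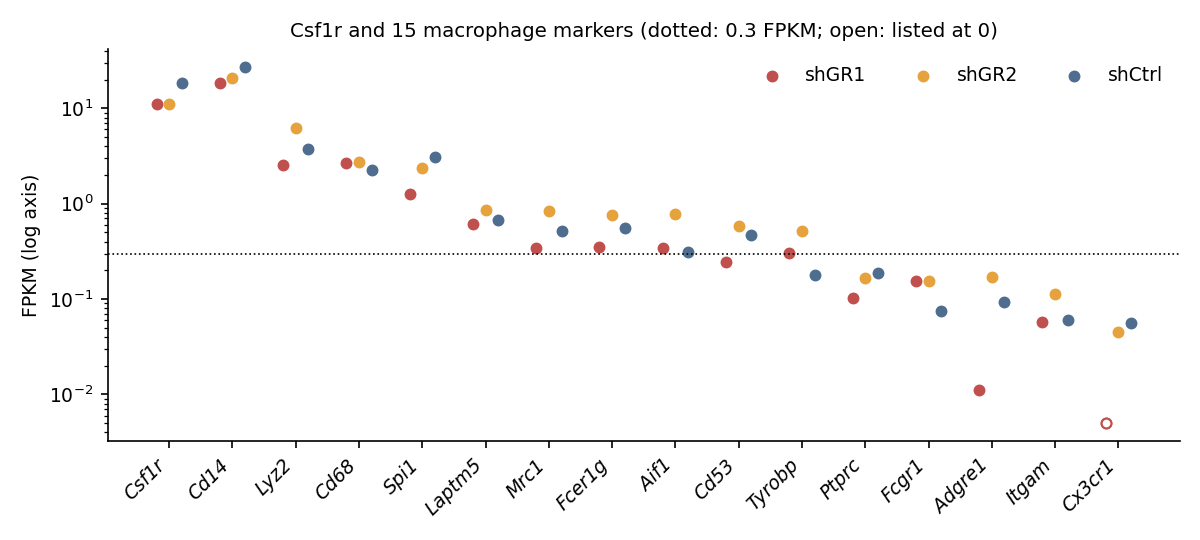
FPKM (y axis, logarithmic) of Csf1r and of 15 macrophage markers ordered by their mean level (x axis), 1 point per library, with an open point at the lower edge for a value listed at 0. Csf1r lies near Cd14 at the upper left, whereas Ptprc, Fcgr1, Adgre1, Itgam and Cx3cr1 lie under the dotted line at 0.3 FPKM in all 3 libraries.

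Csf1, the ligand that sustains macrophages (ENSMUSG00000014599, chromosome 3, 107741048 to 107760469, GRCm38, minus strand), had 12.1 FPKM in shGR1 cells and 7.25 FPKM in shGR2 cells, against 8.09 FPKM in the shCtrl cells. The shGR1 library was above the control and the shGR2 library was below it. The log2 ratio was 0.58 in shGR1 and -0.16 in shGR2, a mean of 0.21 ± 0.53 (SD, n = 2 lines), so the mean was smaller than the spread between the lines.

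The transcripts of Csf1 did not share 1 pattern. Csf1-201, which ends in a long last exon of 2098 bases, had 5.73 FPKM in shGR1 and 4.05 FPKM in shGR2, against 5.21 FPKM in shCtrl. Csf1-203 has the same 1656 coding bases but a last exon of its own of 246 bases, and it had 2.59 FPKM in shGR1 and 0.714 FPKM in shGR2, against 0.288 FPKM in shCtrl. Csf1-203 was thus higher in both knockdown lines, 8.99-fold in shGR1 and 2.48-fold in shGR2, and its share of the Csf1 FPKM was 21.3% in shGR1 and 9.85% in shGR2, against 3.56% in shCtrl. Without Csf1-203, the rest of Csf1 came to 9.54 FPKM in shGR1 and 6.53 FPKM in shGR2, against 7.80 FPKM in shCtrl.

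The forms that differ by the cleavage stretch kept similar shares. Csf1-202, the short coding form of 771 bases, had 2.96 FPKM in shGR1 and 1.82 FPKM in shGR2, against 1.80 FPKM in shCtrl. It made up 24.4% of Csf1 in shGR1 and 25.1% in shGR2, against 22.3% in shCtrl. The long coding form, Csf1-201 and Csf1-203 together, made up 68.6% in shGR1 and 65.7% in shGR2, against 67.9% in shCtrl. Shares of transcripts that overlap along most of their length are estimates of the quantifier, and the error of these estimates is unknown here. Of the 4 other Csf1 transcripts, Csf1-205 and the intron-retaining Csf1-206 passed 0.3 FPKM in some library, with at most 0.855 FPKM, while Csf1-204 did not and Csf1-207 was listed at 0 throughout.

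**Figure D3:**
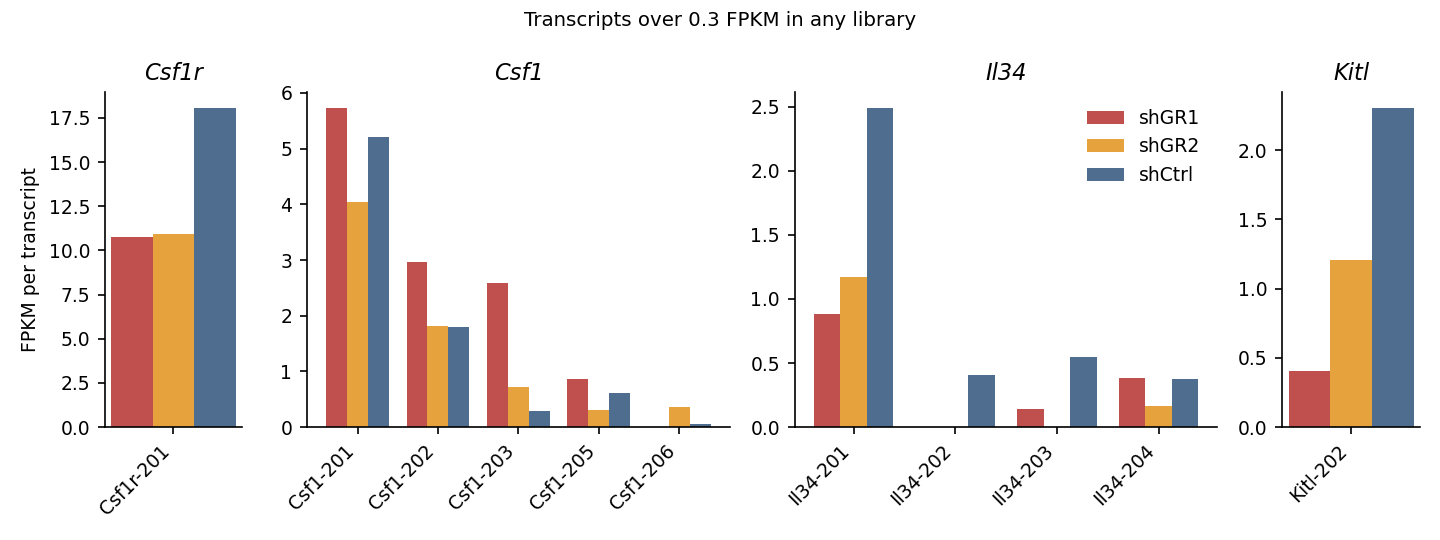
FPKM per transcript (y axis, a separate scale for each gene) of the 11 member transcripts over 0.3 FPKM in any library, with 1 bar each for shGR1, shGR2 and shCtrl. Csf1-203 is higher in both knockdown lines than in shCtrl, while Csf1r-201, Il34-201 and Kitl-202 are lower in both.

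Il34, the other CSF1R ligand (ENSMUSG00000031750, chromosome 8, 110741829 to 110805924, GRCm38, minus strand), had 1.41 FPKM in shGR1 cells and 1.33 FPKM in shGR2 cells, against 3.94 FPKM in the shCtrl cells. Both knockdown lines lay below the control and close together. The log2 ratio was -1.48 in shGR1 and -1.56 in shGR2, a mean of -1.52 ± 0.06 (SD, n = 2 lines), and 1.99% of expressed genes had a lower mean. The FPKM of Csf1 was 8.61 times that of Il34 in shGR1 and 5.44 times in shGR2, against 2.06 times in shCtrl. Both ligands together came to 13.5 FPKM in shGR1 and 8.58 FPKM in shGR2, against 12.0 FPKM in shCtrl, so the summed ligand level did not lie on the same side of the control in the 2 lines.

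Of the 5 Il34 transcripts, 4 passed 0.3 FPKM in some library. Il34-201, which encodes IL-34 with 705 coding bases, had 0.881 FPKM in shGR1 and 1.17 FPKM in shGR2, against 2.49 FPKM in shCtrl. Il34-204, the form with the added exon and 657 coding bases, had 0.382 FPKM in shGR1 and 0.162 FPKM in shGR2, against 0.372 FPKM in shCtrl, so it was lower in shGR2 only. The coding forms together had 1.26 FPKM in shGR1 and 1.33 FPKM in shGR2, against 2.86 FPKM in shCtrl, with a log2 ratio of -1.18 in shGR1 and -1.10 in shGR2. The other 3 transcripts, which have no coding sequence in the annotation, summed to 0.146 FPKM in shGR1 and 8.8e-05 FPKM in shGR2, against 1.07 FPKM in shCtrl. They made up 27.3% of Il34 in the shCtrl library. Ratios are therefore smaller for the coding forms than for the whole gene, but stay over 2-fold.

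Kitl, the gene of stem cell factor (ENSMUSG00000019966, chromosome 10, 100015630 to 100100416, GRCm38, plus strand), had 0.445 FPKM in shGR1 cells and 1.20 FPKM in shGR2 cells, against 2.59 FPKM in the shCtrl cells. Both knockdown lines were below the control, shGR1 by more than shGR2. The log2 ratio was -2.54 in shGR1 and -1.11 in shGR2, a mean of -1.82 ± 1.02 (SD, n = 2 lines), which left 17.2% (shGR1) and 46.5% (shGR2) of the control level. Of all expressed genes, 1.34% had a lower mean log2 ratio. The same order of the lines was seen for Nr3c1, which was at 14.6% of the control level in shGR1 and 30.3% in shGR2. The study's methods, however, report a milder loss of the receptor mRNA that was nearly equal in the 2 lines. With 1 library per line, an order of 3 values is no evidence of a relation.

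Kitl-202, which contains the cleavage exon shown above and has 819 coding bases, carried nearly the whole signal. It had 0.404 FPKM in shGR1 and 1.20 FPKM in shGR2, against 2.31 FPKM in shCtrl. Kitl-202 alone was 0.175 times the control level in shGR1 and 0.522 times in shGR2, so it missed the 2-fold limit in shGR2 that the summed gene passed. The summed gene also missed it in shGR2 when each library was rescaled to a sum of 1000000 (log2 ratio -0.99) or a pseudocount of 1 FPKM was added (-0.70). Kitl-201, which lacks the exon and has 735 coding bases, was listed at 0 in both knockdown libraries and had 0.126 FPKM in shCtrl, under the expression minimum. The intron-retaining Kitl-206 had 0.0408 FPKM in shGR1, was listed at 0 in shGR2 and had 0.160 FPKM in shCtrl. The other 3 Kitl transcripts were listed at 0 in all libraries.

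Kit, the receptor for stem cell factor (ENSMUSG00000005672, chromosome 5, 75574916 to 75656722, GRCm38, plus strand), had 0.0226 FPKM in shGR1 cells and 0.123 FPKM in shGR2 cells, against 0.0458 FPKM in the shCtrl cells. All values were below 0.3 FPKM, and none of its 8 transcripts passed that minimum. In shGR1 nearly all of the value sat on an intron-retaining transcript, Kit-208, with 0.0226 FPKM. In shCtrl, 94.7% sat on the coding Kit-204, and in shGR2, 52.5% sat on the coding Kit-201 and 44.1% on the intron-retaining Kit-205. As a rough measure of depth, the lowest 1% of values above 0 in long single-transcript genes was taken as the worth of about 1 fragment. On that scale the Kit values stood for about 3.12 fragments in shGR1 and 20.3 in shGR2, against 10.0 in shCtrl. These numbers are rough, and the difference of Kit between the lines was not tested. Kitl stood for about 102 fragments in shGR1 and 341 in shGR2, against 559 in shCtrl, and Il34 for about 98.8 in shGR1 and 115 in shGR2, against 226 in shCtrl. Csf1r rested on far more, about 1864 in shGR1 and 2153 in shGR2, against 2950 in shCtrl. Of the 8 mast cell markers, 0 were expressed, and their sum was at most 0.674 FPKM in any library. Melanocytes, which depend on KIT, were read from 6 markers, of which Pmel and Mlana passed 0.3 FPKM, both in shCtrl alone. Pmel had 0.169 FPKM in shGR1 and 0.205 FPKM in shGR2, against 0.510 FPKM in shCtrl. Mlana had 0.225 FPKM in shGR1 and was listed at 0 in shGR2, against 0.690 FPKM in shCtrl. The sum of the 6 markers was 0.418 FPKM in shGR1 and 0.307 FPKM in shGR2, against 1.28 FPKM in shCtrl. This sum came mostly from Pmel and Mlana and was lower in both knockdown lines, as Kitl was. Kit itself lay below shCtrl in shGR1 and above it in shGR2. The defining melanin enzyme gene Tyr was listed at 0 throughout, and Dct and Tyrp1 were at or under 0.0355 FPKM. Sox10, also under 0.3 FPKM in every library, was higher in both lines. It had 0.0243 FPKM in shGR1 and 0.0551 FPKM in shGR2, against 0.0197 FPKM in shCtrl. The part of such cells in the Kit and Kitl values was not tested.

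**Figure D4:**
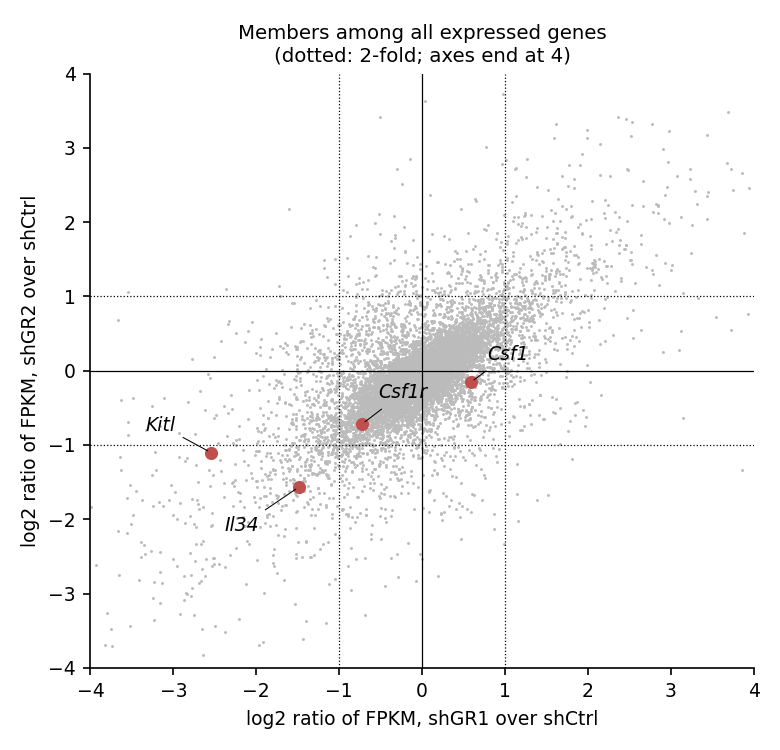
Log2 ratio of FPKM to shCtrl in shGR1 (x axis) and shGR2 (y axis) for all 15025 expressed genes with a value above 0 in every library (grey points), with the 4 expressed members in red. Il34 and Kitl lie beyond 2-fold (dotted lines) in the lower left, Csf1r lies near the diagonal at -0.73 and -0.72, Csf1 lies at 0.58 and -0.16, and 55 genes beyond 4 on either axis are not drawn.

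Promoter windows of 300 bases around an annotated start were at hand for Csf1, Kit and Kitl from RefSeq (GRCm38.p6). Those of Csf1 and Kitl are printed because Kitl was lower in both lines of the receptor knockdown and Csf1 was not. The motifs searched on both strands were the perfect glucocorticoid response element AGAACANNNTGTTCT, its arm AGAACA alone (which the full element also holds), the TATA box TATAAA, the AP-1 motif TGANTCA and the GC box GGGCGG, and any match is in capitals. The window of Csf1 is chr3:107760420-107760719 on the minus strand, and that of Kitl is chr10:100015571-100015870 on the plus strand. Kitl-202, which carried most of the Kitl signal, starts at 100015630. Most of the Kitl window, with all of its marked matches, therefore lies downstream of that start. Kitl-203, Kitl-204 and Kitl-205, listed at 0 in all libraries, start between 100015824 and 100015827.
Csf1: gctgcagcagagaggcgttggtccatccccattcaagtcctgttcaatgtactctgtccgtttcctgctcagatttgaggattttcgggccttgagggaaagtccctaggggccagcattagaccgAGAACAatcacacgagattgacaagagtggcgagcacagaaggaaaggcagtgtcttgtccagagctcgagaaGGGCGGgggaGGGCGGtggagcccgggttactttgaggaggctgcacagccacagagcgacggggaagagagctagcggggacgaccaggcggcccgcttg
Kitl: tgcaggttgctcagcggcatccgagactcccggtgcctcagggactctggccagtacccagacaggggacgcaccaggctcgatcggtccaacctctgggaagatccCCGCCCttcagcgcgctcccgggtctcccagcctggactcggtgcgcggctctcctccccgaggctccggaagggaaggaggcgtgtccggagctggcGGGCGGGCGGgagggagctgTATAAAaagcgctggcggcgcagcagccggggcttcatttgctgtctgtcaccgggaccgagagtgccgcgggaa
The Csf1 window held 1 AGAACA arm, present in 19% of the 32851 windows of this length, and 2 GC boxes. The Kitl window held 1 TATAAA, present in 13.6% of windows, and 3 GC boxes, of which a pair overlap. At least 1 GC box was in 35.7% of windows. The full response element was in neither window, nor in that of Kit, and was in 0.00913% of all windows. The AP-1 motif was in none of the 3 windows and in 7.81% of all. A match or its absence describes these letters only.

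Around the members, the genes of the same pathway were read from 10 lists of 120 different genes, of which 118 symbols were in the table and 96 were expressed. Of these 96, 37 were lower in both knockdown lines, beside 43.9% of all expressed genes, and 33 were higher in both, beside 32.2%. The other 26 lay on opposite sides of shCtrl, beside 3583 of all 15025 genes that were opposite or equal to it. The shares of 43.9% and 32.2% also stand beside the counts of each list below. None was at least 2-fold lower or higher in both lines, beside 2.9% and 2.21% of all expressed genes, and the median of the mean log2 ratios was 0.01, beside -0.05 over all expressed genes. Il34 and Kitl passed 2-fold in both lines and no expressed listed partner did. Since these members were chosen with their values known, nothing is read from this contrast.

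Among receptors and ligands of the same class, the PDGF receptor genes Pdgfra and Pdgfrb and the FLT3 receptor gene Flt3 were under 0.3 FPKM in all libraries. Their ligands were present. Pdgfb had 36.0 FPKM in shGR1 and 36.7 FPKM in shGR2, against 37.5 FPKM in shCtrl. Pdgfa had 26.5 FPKM in shGR1 and 22.6 FPKM in shGR2, against 26.7 FPKM in shCtrl, and Flt3l had 2.14 FPKM in shGR1 and 1.56 FPKM in shGR2, against 2.25 FPKM in shCtrl. Of this class of receptors, Csf1r was thus the one expressed in the mpkCCD cells. Of the 8 genes of other colony-stimulating factors, IL-3 and their receptors, only Csf3 and Csf2ra were expressed. Csf3, the granulocyte factor, had 3.37 FPKM in shGR1 and 3.55 FPKM in shGR2, against 4.95 FPKM in shCtrl. Csf2ra, the α chain of the receptor for granulocyte-macrophage factor, had 2.25 FPKM in shGR1 and 1.99 FPKM in shGR2, against 1.78 FPKM in shCtrl.

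IL-34 has other known binding partners besides CSF1R. Sdc1, the proteoglycan syndecan-1, was abundant, with 115 FPKM in shGR1 and 125 FPKM in shGR2, against 115 FPKM in shCtrl. Ptprz1, a receptor phosphatase, had 0.386 FPKM in shGR1 and 0.761 FPKM in shGR2, against 0.653 FPKM in shCtrl. Of the 11 genes for shedding and intramembrane cleavage, 10 were expressed, 4 of them lower in both lines and 4 higher in both. Adam10, a sheddase, had 56.4 FPKM in shGR1 and 65.0 FPKM in shGR2, against 63.2 FPKM in shCtrl. Ncstn, a γ-secretase subunit gene, had 49.6 FPKM in shGR1 and 51.8 FPKM in shGR2, against 52.8 FPKM in shCtrl. Mmp9, a protease that frees KIT ligand in mouse bone marrow, was not expressed, with 0.165 FPKM in shCtrl at most.

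Downstream of the receptors, nearly all of the shared machinery was present. Of 22 adaptors and proximal kinases 19 were expressed, with 9 lower and 6 higher in both lines, and a median mean log2 ratio of -0.08. The adaptor gene Grb2 had 42.3 FPKM in shGR1 and 42.6 FPKM in shGR2, against 38.7 FPKM in shCtrl. Shc1 and Crk, also adaptors, were between 54.3 and 68.3 FPKM. Of 17 negative regulators 14 were expressed, 4 lower and 4 higher in both lines. The phosphatase gene Ptpn11 had 77.4 FPKM in shGR1 and 75.7 FPKM in shGR2, against 64.7 FPKM in shCtrl. Rasa1, which switches off RAS, had 42.7 FPKM in shGR1 and 41.2 FPKM in shGR2, against 33.5 FPKM in shCtrl. All 17 RAS-ERK and AKT effectors were expressed, 8 lower and 3 higher in both lines, and their median was -0.04. Akt1 had 122 FPKM in shGR1 and 126 FPKM in shGR2, against 114 FPKM in shCtrl. Nras had 85.1 FPKM in shGR1 and 67.5 FPKM in shGR2, against 68.3 FPKM in shCtrl. No expressed gene of these 3 lists was at least 2-fold from the control in both lines. Among those under 0.3 FPKM in every library, Inpp5d, a lipid phosphatase gene named after its values were seen, had 0.110 FPKM in shGR1 and 0.0334 FPKM in shGR2, against 0.0118 FPKM in shCtrl.

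The genes known to be induced by CSF1R or KIT signalling had the highest median of the 10 lists, a rank read after the values were seen. All 12 were expressed. Of these, 6 were higher in both lines, beside 32.2% of all expressed genes, and 2 were lower in both, beside 43.9%. The median of their mean log2 ratios was 0.44, beside -0.05 over all expressed genes. Plau, the urokinase gene, had 152 FPKM in shGR1 and 129 FPKM in shGR2, against 87.0 FPKM in shCtrl. Egr1, an immediate early factor, had 92.6 FPKM in shGR1 and 97.5 FPKM in shGR2, against 73.5 FPKM in shCtrl. Ccnd1, the cyclin D1 gene, had 80.0 FPKM in shGR1 and 53.0 FPKM in shGR2, against 88.1 FPKM in shCtrl. Many other receptors are known to induce these genes too, and the part of CSF1R or KIT in these values was not tested. Spry4, a feedback inhibitor of ERK singled out after its values were seen, had 0.948 FPKM in shGR1 and 0.529 FPKM in shGR2, against 0.338 FPKM in shCtrl.

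Of 12 transcription factors known to control Csf1r or Kit in blood and pigment cells, 8 were expressed, 3 lower and 3 higher in both lines. Runx1, which with PU.1 controls Csf1r in blood cells, had 31.8 FPKM in shGR1 and 25.9 FPKM in shGR2, against 20.2 FPKM in shCtrl. Ets2 had 31.1 FPKM in shGR1 and 28.4 FPKM in shGR2, against 24.0 FPKM in shCtrl, and Cebpb was between 51.9 and 55.0 FPKM. Mitf, the melanocyte factor that drives Kit, was under 0.3 FPKM throughout. It had 0.220 FPKM in shGR1 and 0.160 FPKM in shGR2, against 0.0795 FPKM in shCtrl. Runx1 and Ets2 thus lay above shCtrl in both lines, Spi1 and Csf1r below it. Of 14 genomic neighbours of the members 12 symbols were in the table and 9 were expressed, 4 lower and 5 higher in both lines. Ahcyl1, near Csf1, had 139 FPKM in shGR1 and 115 FPKM in shGR2, against 99.1 FPKM in shCtrl. Sf3b3, near Il34, was between 93.3 and 97.4 FPKM, and Tmtc3, near Kitl, was between 34.9 and 39.1 FPKM. The neighbours of Il34 and Kitl that were expressed were less than 2-fold from the control in both lines.

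**Figure D5:**
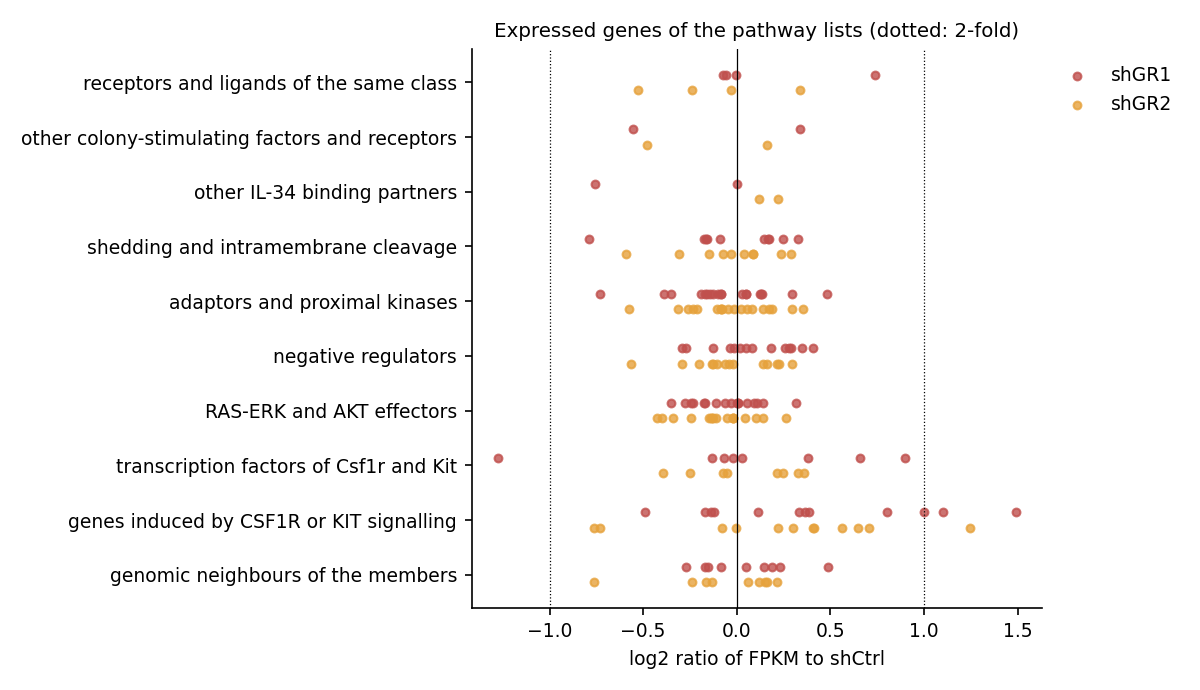
Log2 ratio of FPKM to shCtrl (x axis) in shGR1 (upper points) and shGR2 (lower points) for the expressed genes of the 10 pathway lists (y axis). No listed gene passes 2-fold (dotted lines) in both lines, and the induced genes reach furthest to the right.

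Markers of other cell types were read in the same libraries. The 7 fibroblast markers, which include Dcn and Col3a1, summed to 5.99 FPKM in shGR1 and 13.0 FPKM in shGR2, against 9.23 FPKM in shCtrl. Of the 5 expressed ones, 4 lay on opposite sides of shCtrl in the 2 lines. Among all 15025 expressed genes with a ratio, 3583 were opposite or equal to it. Kit, under 0.3 FPKM in every library, and in the other direction Csf1, also lay on opposite sides. The part of the fibroblast signal in Kit and Csf1 was not tested. Of 8 endothelial markers 1 was expressed, with a sum of at most 0.864 FPKM in any library. The 7 epithelial markers, such as Epcam and Krt18, summed to 1906 FPKM in shGR1 and 1945 FPKM in shGR2, against 1903 FPKM in shCtrl. The labelled principal cell type was checked in the same way. Of 11 principal cell markers 9 were expressed, and 4 of them were at least 2-fold lower in both lines, beside 2.9% of all expressed genes. By any amount 7 were lower in both lines, beside 43.9% of all expressed genes, and 1 was higher in both, beside 32.2%. The higher one was the water channel gene Aqp3, with 9.11 FPKM in shGR1 and 8.97 FPKM in shGR2, against 6.49 FPKM in shCtrl. Hsd11b2, which inactivates glucocorticoids, lay on opposite sides, with 19.5 FPKM in shGR1 and 55.8 FPKM in shGR2, against 27.8 FPKM in shCtrl. Aqp2, the water channel gene, had 0.751 FPKM in shGR1 and 2.14 FPKM in shGR2, against 9.55 FPKM in shCtrl, an order of lines that Kitl shared. Of 8 intercalated cell markers, Kit among them, 3 were expressed. All 3 were lower in both lines, beside 43.9% of all expressed genes, and 2 were at least 2-fold lower in both, beside 2.9%. The defining genes Foxi1, Slc4a1 and Slc26a4 were at or under 0.0398 FPKM.

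The genes nearest to each expressed member in the pair of log2 ratios were found by Euclidean distance among 10631 named genes over 1 FPKM on average. With 2 ratios from 3 libraries per gene, nearness says nothing of shared control. Nearest to Kitl were Rpl38-ps1, a ribosomal protein pseudogene whose reads may belong to its near-identical relatives, at a distance of 0.018, then Rhcg, an ammonia transporter gene of the collecting duct, at 0.043, and Bmp3, a bone morphogenetic protein gene, at 0.155. Rhcg had 2.31 FPKM in shGR1 and 6.08 FPKM in shGR2, against 13.0 FPKM in shCtrl. Nearest to Il34 were Dock8, a guanine nucleotide exchange factor gene, at 0.030, Pdzk1ip1 at 0.040, and Upk3b, a uroplakin gene, at 0.054. Dock8 had 4.53 FPKM in shGR1 and 4.33 FPKM in shGR2, against 12.9 FPKM in shCtrl. Nearest to Csf1r were the ribosomal protein gene Rpl26 at 0.0055, the pentose phosphate pathway gene Pgls at 0.0093, and the pyridoxal kinase gene Pdxk at 0.021. Nearest to Csf1 were Syt12 at 0.018, Lacc1 at 0.034, and the aldolase gene Aldoc at 0.039.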

How the data were processed

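RNA-seq of mouse mpkCCD cells was available as 3 libraries, 1 per line (shGR1, shGR2 and shCtrl), so no test and no p-value was computed. The authors deposited FPKM per Ensembl transcript, made per the submitters' processing notes with HISAT2, Cuffdiff and Cufflinks 2.2.1 after bcl2fastq 2.20. Comparison tables of the authors (FPKM, ratios, log2 ratios, p and q values) were not used. The notes name GRCm39, but the deposited loci span the GENCODE M21 (GRCm38) position of 98.6% of 127971 matched transcripts, so positions are on GRCm38. No read counts were analysed, so depth is known only roughly and no counting error is given. For the strand setting, not given in the sources used here, no assumption was made. The sum of FPKM was 435341 in shGR1 and 427704 in shGR2, against 462522 in shCtrl.

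FPKM were summed per symbol with Python 3.11.15 and pandas 2.3.3. The expressed genes were the 15438 that passed 0.3 FPKM in some library, the minimum of the study's methods, and 15025 of these were above 0 in all libraries and had ratios. Log2 ratios to shCtrl carry no pseudocount, with mean and SD taken across the 2 knockdown lines. The members and the lists were chosen with earlier results of these data known. Named genes were the members, Nr3c1, list genes at least 2-fold different in both lines, up to 3 genes per list with the highest mean FPKM, and the 3 nearest genes per expressed member. Predicted and clone-named genes were left out of that search. Values of 3 genes that the rule named are not reported here. Alternatives were other pseudocounts, scalings, filters, folds and transcript choices.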

Additional observations from a re-analysis of the deposited data

Results flagged for a closer look

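Some members and member transcripts lay above the control in 1 knockdown line and below it in the other. Each line is 1 library, and the difference between the lines was not tested. The log2 ratio of shGR1 minus that of shGR2 was 0.74 for Csf1, with 12.1 FPKM in shGR1 and 7.25 FPKM in shGR2, against 8.09 FPKM in shCtrl. For Kit it was -2.45, on values under 0.3 FPKM in every library. Among transcripts it was 0.50 for Csf1-201, 1.49 for Csf1-205 and 1.24 for Il34-204. Csf1-205 had 0.855 FPKM in shGR1 and 0.304 FPKM in shGR2, against 0.614 FPKM in shCtrl, and Il34-204 had 0.382 FPKM in shGR1 and 0.162 FPKM in shGR2, against 0.372 FPKM in shCtrl.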

How the results depend on the processing

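The mean log2 ratio of Csf1 reversed when Csf1-201 alone was used, to -0.11, against 0.21 for the summed gene. That of Csf1r, -0.73 as reported, stayed negative in every alternative, but moved by more than the very small spread between its lines: to -0.72 with a pseudocount of 0.1 FPKM, -0.68 with 1 FPKM, -0.68 when median-centred, -0.65 after quantile normalization, -0.63 when rescaled to a sum of 1000000, and -0.73 (from -0.726 to -0.735) with its highest transcript alone or with transcripts over 0.3 FPKM. That of Il34, -1.52 as reported, was -1.46 with a pseudocount of 0.1 FPKM, -1.06 with 1 FPKM, -1.42 when rescaled and -1.29 with Il34-201 alone. Kitl and Kit moved by less than the spread between their lines in every alternative that gave a value. Kit had no transcript over 0.3 FPKM, and its highest transcript was listed at 0 in a library, so both of these gave no value. In shGR2, Kitl was under 2-fold with a pseudocount of 1 FPKM (log2 ratio -0.70), when rescaled (-0.99) and with Kitl-202 alone (-0.94).

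The counts of genes at least 2-fold lower and higher in both lines, 436 and 332, were 723 and 645 without a filter on low values, and 1089 and 762 at 1.5-fold. Genes higher numbered 154 over 1 FPKM and 210 with a pseudocount of 0.1 FPKM. Of the pathway lists, 0 genes were lower and 0 higher at 2-fold. Without a filter 1 was lower (Mmp9) and 3 were higher (Il3ra, Inpp5d and Mitf), and at 1.5-fold 1 was lower (Psen2) and 1 was higher (Spry4). Rescaling to a sum of 1000000 moved the median of all log2 ratios from -0.05 to 0.05. No paired analysis was possible because each line has 1 library and the labels give no shared replicate numbers. With 1 library per line, differences between lines include those between cell populations, cultures and libraries. The counting error of low values, such as those of Kit and Kitl-201, is not known here.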
